A study of Mus musculus with 18 samples.

Results

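Glycolysis and the pentose phosphate pathway were examined through 35 listed genes in mouse bone marrow-derived macrophages stimulated with IL-4. Members were chosen by name: a probe stood for a member when the array file gave the listed symbol as its gene, and the probe with the highest mean signal was used. Of the 35 genes, 33 had such a probe, out of 21307 genes named on the array, and Gapdh and Rpia had none under these symbols. All 33 were well above background on all 18 arrays and none was saturated, so no member was lost to the filter on dim probes. The members cover glucose entry, the glycolytic steps from hexokinase to pyruvate kinase, lactate formation and export, the gate into the mitochondrion, the pentose phosphate branch, and Hif1a.

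Macrophages were grown from pooled bone marrow of C57BL6/J mice, 8 to 12 weeks old, in human recombinant CSF1. Irf4-/- mice were compared with Irf4+/- littermates, so the control genotype is itself heterozygous and no wild-type cells were measured. Each genotype was left unstimulated for 18 h (mock) or exposed to 10 ng/ml IL-4 over 4 h or 18 h, which gives 6 groups of 3 arrays, 1 from each of the experiments A, B and C. Pools are labelled as 2 males and 1 female, and the 4 h response is read against a mock of 18 h. Where the deletion lies, and whether all cells carry it, is not stated in these sources.

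Glycolysis splits glucose into pyruvate with a small yield of ATP, and pyruvate is either reduced to lactate and exported or oxidised in mitochondria. The pentose phosphate pathway branches off at glucose 6-phosphate and supplies NADPH and ribose. Macrophages activated by bacterial products are known for high glycolysis driven in part by HIF-1α, whereas IL-4-activated macrophages are known for oxidative metabolism while still using glucose.

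All levels below are log2 intensities, each less its own array's 75th percentile. Differences are log2 differences ± the standard error of the limma fit without the experiment as a block, with 3 arrays per group. The p-values with the block rest on other standard errors, which are not printed. A gene was called, or rose or fell, when its adjusted p was under 0.05 over 15486 genes. Each comparison was fitted without the experiment and with the experiment as a block, since the letters pair the samples. Both adjusted p-values are given for members called in either fit, without the block first, while marker genes do not always carry both. Levels of different genes come from different probes and are not compared with each other.

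The stretches below are the 250 bases before the RefSeq start (GRCm38.p6, 5′ to 3′ on the strand of the gene, the start farthest upstream where several are listed). They belong to the 5 members with an entry that moved at 18 h of IL-4 in both genotypes with the experiment as a block: Slc16a3, Aldoc and Pfkl, which fell, and Hk3 and Pdk3, which rose. Slc2a3 fell too. Capitals mark ACGTG and GCGTG, the core of the hypoxia response element that HIF-1 binds, and TTC and GAA with 4 bases between them, a spacing that STAT6 binds, searched on both strands with overlapping matches counted.
Slc16a3, chr11:120948817-120949066, plus strand: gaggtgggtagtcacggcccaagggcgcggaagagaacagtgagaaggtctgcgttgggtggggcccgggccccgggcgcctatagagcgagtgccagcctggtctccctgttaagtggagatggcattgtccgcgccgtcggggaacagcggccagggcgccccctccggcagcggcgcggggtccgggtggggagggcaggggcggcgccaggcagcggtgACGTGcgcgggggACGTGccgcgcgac
Aldoc, chr11:78322823-78323072, plus strand: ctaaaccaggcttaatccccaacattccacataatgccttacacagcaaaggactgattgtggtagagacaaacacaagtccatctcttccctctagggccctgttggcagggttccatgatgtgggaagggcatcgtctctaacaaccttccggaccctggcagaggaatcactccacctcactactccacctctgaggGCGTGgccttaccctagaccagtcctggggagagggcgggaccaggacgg
Pfkl, chr10:78009808-78010057, minus strand: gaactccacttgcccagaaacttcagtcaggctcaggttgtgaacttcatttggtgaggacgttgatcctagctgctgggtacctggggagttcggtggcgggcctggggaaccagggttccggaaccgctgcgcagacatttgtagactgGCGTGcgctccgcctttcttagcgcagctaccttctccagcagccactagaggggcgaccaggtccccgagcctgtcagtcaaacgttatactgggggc
Hk3, chr13:55021386-55021635, minus strand: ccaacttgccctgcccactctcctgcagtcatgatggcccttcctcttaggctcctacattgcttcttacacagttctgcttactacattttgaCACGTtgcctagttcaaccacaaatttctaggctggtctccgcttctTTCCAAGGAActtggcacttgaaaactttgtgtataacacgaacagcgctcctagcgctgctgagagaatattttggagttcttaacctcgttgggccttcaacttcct
Pdk3, chrX:93832151-93832400, minus strand: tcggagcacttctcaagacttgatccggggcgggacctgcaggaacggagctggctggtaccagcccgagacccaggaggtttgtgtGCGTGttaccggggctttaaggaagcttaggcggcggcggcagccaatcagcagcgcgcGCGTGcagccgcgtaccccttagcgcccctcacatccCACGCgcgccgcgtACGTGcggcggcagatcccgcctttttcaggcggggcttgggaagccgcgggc
Slc16a3 holds 2 ACGTG matches close to its start, and Aldoc and Pfkl hold 1 GCGTG each. Hk3 holds 1 ACGTG, read on the opposite strand, and 1 TTC and GAA pair. Pdk3 holds 1 ACGTG and 3 GCGTG matches. Over all 32851 promoter windows of this length, 16.6% held ACGTG, 28.2% GCGTG and 5.85% the TTC and GAA pair. The 34 members with an entry have 48 windows, and the shares there were 37.5%, 56.2% and 10.4%. Members called in no comparison hold the same letters: the first Ldha window has 5 ACGTG matches, Pgk1 has 2 and Hif1a has 3. These matches describe letters in a window and were not set against any binding data.

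Few members passed the test after IL-4. After 4 h, 0 of 33 members were called in Irf4+/- cells (4.27% of all genes) and 0 of 33 in Irf4-/- cells (3.91% of all genes). After 18 h, Aldoc and Slc16a3 fell in each genotype, 2 of 33 members in Irf4+/- cells (4.15% of all genes) and 2 of 33 in Irf4-/- cells (3.55% of all genes). Over all genes, 2.02% and 1.42% fell. In limma without the block and without adjustment, 0 members in each genotype had p under 0.05 at 4 h, beside 13.8% and 13.6% of all genes. At 18 h there were 6 in Irf4+/- cells and 4 in Irf4-/- cells, beside 12.3% and 13.1% of all genes.

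With the experiment as a block, more members passed. In Irf4+/- cells 3 were called at 4 h (18.3% of all genes) and 8 at 18 h (15.5%), and in Irf4-/- cells 3 at 4 h (18.2%) and 9 at 18 h (18.4%). At 4 h the same members were called in both genotypes: Slc2a1 and Pdk3 rose and Eno2 fell. At 18 h, Hk3 and Pdk3 rose and Slc2a3, Pfkl, Aldoc and Slc16a3 fell in both. Pfkp and Slc16a1 rose in the Irf4+/- fit, and Pfkfb4 and Pdha1 rose and Tpi1 fell in the Irf4-/- fit. None of these was called when the difference between genotypes itself was tested. Of the members called at 18 h with the block, 4 fell in Irf4+/- cells (7.78% of all genes fell) and 5 in Irf4-/- cells (6.72%).

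The median difference over the 33 members was 0.03 at 4 h and -0.01 at 18 h in Irf4+/- cells, beside -0.02 and 0.02 over all genes. In Irf4-/- cells it was 0.06 and 0.02, beside 0.08 and 0.12. Differences ran from -0.70 to 0.71 at 4 h and from -1.09 to 0.69 at 18 h in Irf4+/- cells, and from -0.89 to 0.54 and from -1.03 to 0.65 in Irf4-/- cells. Only Slc2a3 reached a 2-fold difference on this scale, at 18 h in each genotype. Mock and IL-4 arrays did not overlap for 1 of 33 members at 4 h and 5 at 18 h in Irf4+/- cells, beside 16.3% and 14.1% of all genes. In Irf4-/- arrays they did not overlap for 3 members at 4 h (21.8%) and 7 at 18 h (21.8%).

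**Figure D1:**
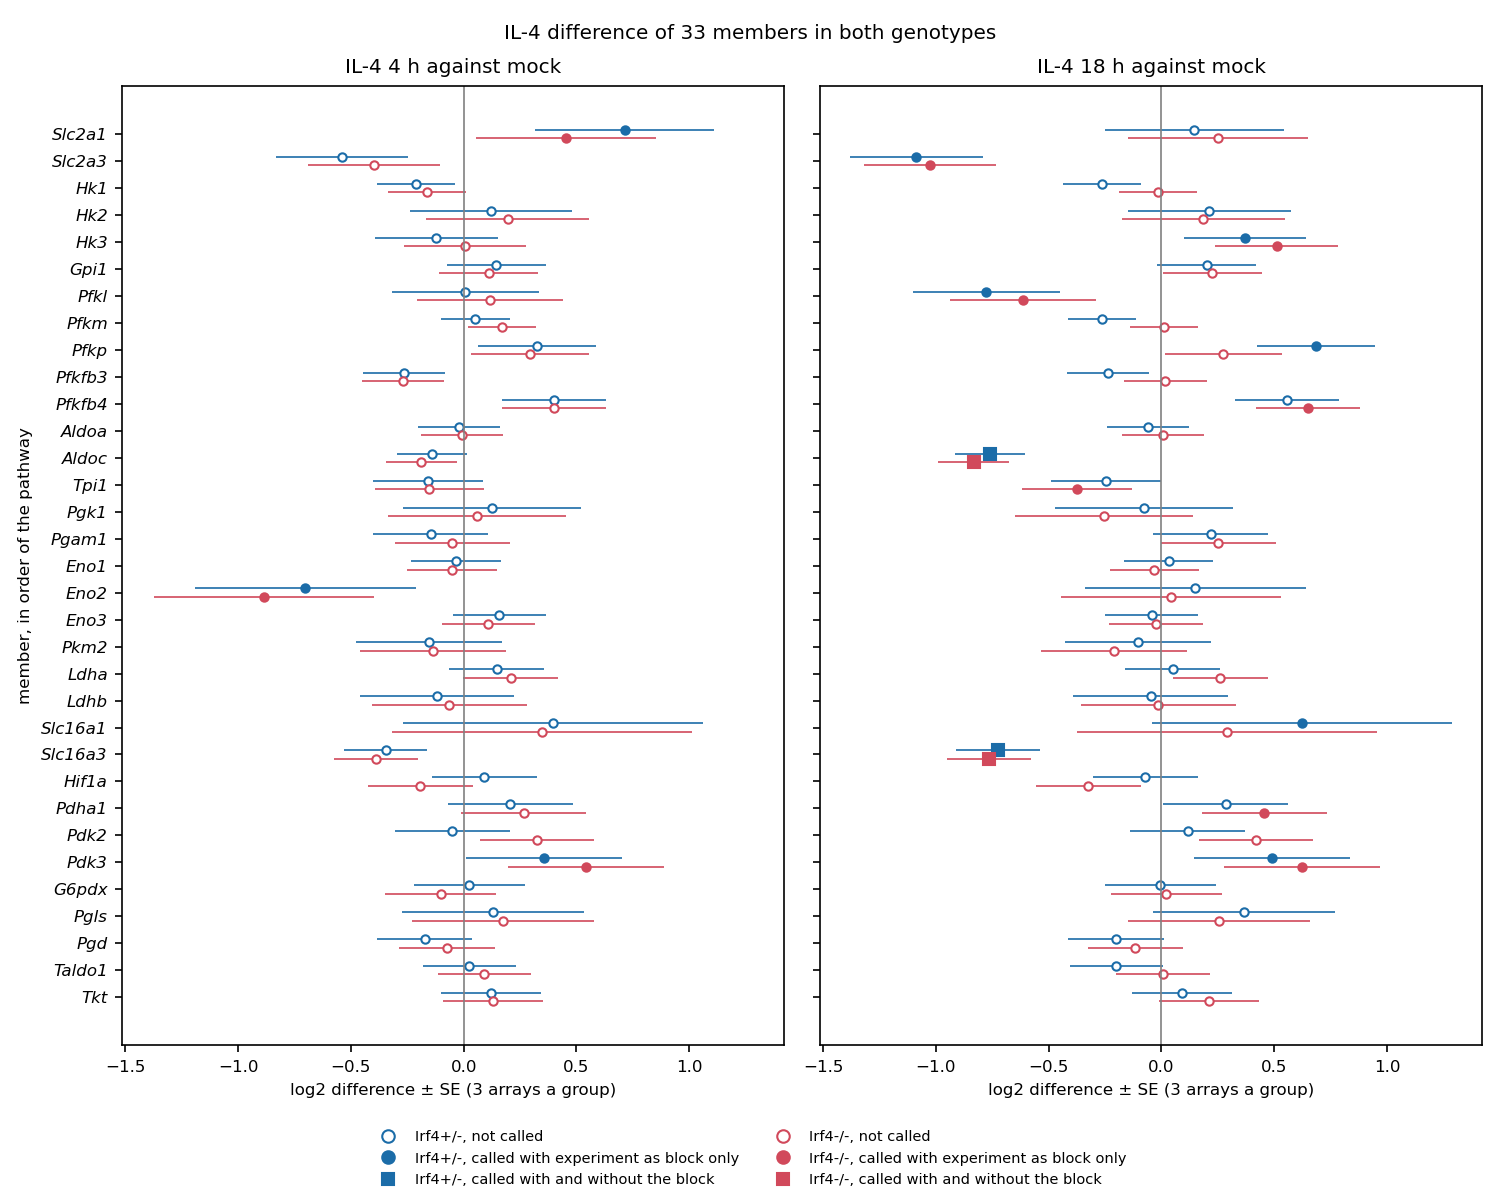
Log2 difference of each of the 33 members after IL-4 for 4 h (left) and 18 h (right) against mock, in Irf4+/- (blue) and Irf4-/- (red) macrophages, with the standard error of the fit without the block (3 arrays per group). Squares mark Aldoc and Slc16a3 at 18 h, called in both fits, filled circles the members called only with the experiment as a block, and most open circles lie within 0.25 of 0.

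Glucose enters macrophages mainly through GLUT1, encoded by Slc2a1. Slc2a1 measured 2.93, 2.33 and 3.57 in Irf4+/- mock cells (A, B and C), 3.84, 3.01 and 4.12 after 4 h of IL-4, and 3.12, 2.68 and 3.48 after 18 h. Irf4-/- arrays gave for Slc2a1 3.43, 2.92 and 3.73 in mock, 3.99, 3.14 and 4.31 after 4 h, and 3.49, 3.25 and 4.09 after 18 h. The 4 h array was above the mock array of its experiment in 6 of 6 pairs, while the groups overlapped because B lay low and C high in every group. At 4 h the difference was 0.71 ± 0.40 in Irf4+/- cells (1.64-fold, adjusted p = 0.506, 0.00165 with the block) and 0.45 ± 0.40 in Irf4-/- cells (1.37-fold, 0.738, 0.0254 with the block). By 18 h it was 0.15 ± 0.40 and 0.25 ± 0.40 and was called in neither fit. Between 4 h and 18 h Slc2a1 fell with the block by 0.57 in Irf4+/- cells (adjusted p = 0.841 without it and 0.0127 with it), against -0.20 ± 0.40 in Irf4-/- cells.

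Slc2a3 encodes GLUT3, a transporter with high affinity for glucose. Its probe measured 0.53, 0.08 and 0.80 in Irf4+/- mock cells, -0.14, -0.35 and 0.28 after 4 h, and -0.96, -0.65 and -0.24 after 18 h. The Irf4-/- arrays gave 0.01, 0.26 and 0.81 for Slc2a3 in mock, -0.20, 0.06 and 0.02 after 4 h, and -1.24, -0.47 and -0.29 after 18 h. All 18 h arrays lay below all mock arrays in each genotype. The difference at 18 h was -1.09 ± 0.29 (adjusted p = 0.0534, 0.00168 with the block) and -1.03 ± 0.29 (0.078, 0.00283 with the block). A second, dim Slc2a3 probe, not above background on every array, went the other way by 1.33 and 1.72, and with the mean of both probes the differences were 0.12 and 0.35, so the direction rests on the brighter probe.

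Hexokinases trap glucose in the cell by phosphorylation. Hk3, the hexokinase typical of myeloid cells, measured 3.87, 4.30 and 4.42 in Irf4+/- mock cells, 3.61, 4.10 and 4.51 after 4 h, and 4.11, 4.77 and 4.82 after 18 h. Its Irf4-/- values were 3.65, 3.98 and 4.27 in mock, 3.71, 4.12 and 4.09 after 4 h, and 4.17, 4.55 and 4.71 after 18 h. The 18 h array was the highest of its experiment in each genotype in 6 of 6 cases, though the ranges of mock and 18 h overlapped. The 18 h difference was 0.37 ± 0.27 in Irf4+/- cells (adjusted p = 0.809, 0.0345 with the block) and 0.51 ± 0.27 in Irf4-/- cells (0.47, 0.00625 with the block). With normexp over all spots the Irf4+/- difference was -0.08. Between 4 h and 18 h Hk3 rose with the block by 0.49 (adjusted p = 0.674, 0.0116 with the block) and 0.50 (0.744, 0.0139 with the block).

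Hk2, the inducible hexokinase, and Hk1, the widespread form, were called in no fit. Hk2 measured 3.04, 3.06 and 3.73 in Irf4+/- mock cells, 3.08, 3.12 and 3.98 after 4 h, and 2.79, 3.57 and 4.10 after 18 h. Hk2 in Irf4-/- cells gave 3.41, 3.45 and 3.77, then 3.77, 3.43 and 4.03, then 3.16, 3.76 and 4.27 in the same order. In both genotypes its 18 h value was below mock in A and above it in B and C, which left differences of 0.21 ± 0.36 and 0.19 ± 0.36. Hk1 measured 4.70, 4.83 and 4.86 in Irf4+/- mock cells, 4.41, 4.81 and 4.54 after 4 h, and 4.42, 4.65 and 4.54 after 18 h. For Hk1 the Irf4-/- arrays gave 4.59, 4.97 and 4.86 in mock, 4.42, 4.85 and 4.66 after 4 h, and 4.61, 5.05 and 4.73 after 18 h. Its 18 h arrays lay below all mock arrays in Irf4+/- cells (-0.26 ± 0.17, adjusted p = 0.73, 0.0807 with the block) and among them in Irf4-/- cells (-0.01 ± 0.17). The other Hk1 probes, all dimmer, gave -0.38, -0.36, -0.30 and -0.21 at 18 h in Irf4+/- cells. In the same order they gave -0.41, -0.38, -0.34 and -0.07 in Irf4-/- cells, so most of them did not show this contrast between genotypes. Gpi1, whose enzyme turns glucose 6-phosphate into fructose 6-phosphate, differed by at most 0.23 ± 0.22.

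Phosphofructokinase commits sugar to glycolysis, and its subunits come from 3 genes, all measured here. Pfkl, the liver-type subunit, measured 1.55, 0.64 and 1.27 in Irf4+/- mock cells, 1.37, 0.60 and 1.50 after 4 h, and 0.79, -0.16 and 0.49 after 18 h. The Irf4-/- levels of Pfkl were 1.53, 1.06 and 1.25 in mock, 1.75, 1.03 and 1.40 after 4 h, and 1.10, 0.38 and 0.52 after 18 h. Its 18 h array was below mock in 6 of 6 pairs, by 0.78 ± 0.32 on average in Irf4+/- cells (adjusted p = 0.308, 0.0022 with the block) and by 0.61 ± 0.32 in Irf4-/- cells (0.468, 0.0104 with the block). At 4 h Pfkl differed by 0.01 ± 0.32 and 0.12 ± 0.32, and it fell between 4 h and 18 h with the block by 0.78 (adjusted p = 0.41, 0.00387 with the block) and 0.73 (0.572, 0.00832 with the block).

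Pfkp, the platelet-type subunit, measured 1.87, 1.78 and 2.53 in Irf4+/- mock cells, 2.16, 2.25 and 2.75 after 4 h, and 2.91, 2.47 and 2.86 after 18 h. Its Irf4-/- levels were 1.71, 2.17 and 2.29, then 2.00, 2.48 and 2.56, then 2.05, 2.29 and 2.66. Every IL-4 array of Pfkp was above the mock array of its experiment in both genotypes. The 18 h difference was 0.69 ± 0.26 in Irf4+/- cells (adjusted p = 0.224, 0.0132 with the block) and 0.28 ± 0.26 in Irf4-/- cells (0.758, 0.269 with the block), and these responses did not differ past the threshold (-0.41 ± 0.37, adjusted p = 1 in both fits). The other Pfkp probes gave 0.41 and 0.81 in Irf4+/- cells at 18 h, and -0.23 and 0.63 in Irf4-/- cells, so they disagree in sign in the latter. Pfkm, the muscle-type subunit, differed by -0.26 ± 0.15 in Irf4+/- and 0.01 ± 0.15 in Irf4-/- cells at 18 h and was not called.

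The bifunctional enzymes that make and break fructose 2,6-bisphosphate, the activator of phosphofructokinase, are represented by Pfkfb3 and Pfkfb4. Pfkfb4 measured 4.43, 4.58 and 4.40 in Irf4+/- mock cells, 4.80, 4.98 and 4.83 after 4 h, and 5.29, 4.75 and 5.05 after 18 h. Pfkfb4 in Irf4-/- cells gave 3.81, 4.22 and 4.44 in mock, 4.26, 4.52 and 4.90 after 4 h, and 4.47, 4.72 and 5.23 after 18 h. At 18 h its groups did not overlap with mock in either genotype, and the difference was 0.56 ± 0.23 (adjusted p = 0.299, 0.0754 with the block) and 0.65 ± 0.23 (0.187, 0.0357 with the block). Pfkfb3 measured 1.00, 1.39 and 1.45 in Irf4+/- mock cells, 1.10, 0.97 and 0.98 after 4 h, and 0.93, 1.15 and 1.04 after 18 h. The Irf4-/- arrays gave 1.06, 1.31 and 1.59 for Pfkfb3 in mock, 1.26, 0.76 and 1.13 after 4 h, and 1.22, 1.34 and 1.44 after 18 h. It was called in no fit.

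Aldolase splits fructose 1,6-bisphosphate, and Aldoa and Aldoc were measured. Aldoc, the isozyme best known from brain, measured 2.86, 2.54 and 2.51 in Irf4+/- mock cells, 2.64, 2.57 and 2.28 after 4 h, and 2.04, 1.78 and 1.81 after 18 h. Its Irf4-/- levels were 2.87, 2.74 and 2.60 in mock, 2.53, 2.68 and 2.43 after 4 h, and 1.97, 1.91 and 1.83 after 18 h. All 18 h arrays lay below every mock and every 4 h array of their genotype. Aldoc fell at 18 h by 0.76 ± 0.16 in Irf4+/- cells (adjusted p = 0.0105, 2.17e-04 with the block) and by 0.83 ± 0.16 in Irf4-/- cells (0.00642, 1.22e-04 with the block). The other Aldoc probe moved by -1.29 and -1.25. At 4 h the differences were -0.14 ± 0.16 and -0.19 ± 0.16, and between 4 h and 18 h Aldoc fell with the block by 0.62 (adjusted p = 0.078, 0.00207 with the block) and 0.65 (0.0929, 0.00254 with the block). Without the Irf4+/- mock array of A the call in Irf4+/- cells was lost (adjusted p = 0.0561), and with only the compared groups in the fit it was lost in both genotypes (0.234 and 0.0696). Aldoa, the main isozyme of most cells, measured between 7.76 and 8.51 on all arrays, with IL-4 differences from -0.06 to 0.01 (SE 0.18).

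In the lower part of glycolysis few members were called. Tpi1, which interconverts the triose phosphates, measured 5.62, 4.99 and 5.34 in Irf4+/- mock cells, 5.50, 4.82 and 5.16 after 4 h, and 5.54, 4.74 and 4.94 after 18 h. The Irf4-/- values of Tpi1 were 5.70, 5.35 and 5.47, then 5.55, 5.21 and 5.30, then 5.39, 4.89 and 5.12. Every IL-4 array of Tpi1 was below its mock array, and at 18 h the difference was -0.24 ± 0.24 (adjusted p = 0.944, 0.16 with the block) and -0.37 ± 0.24 (0.605, 0.0288 with the block). Pgk1, the ATP-yielding kinase of a later step, differed by -0.25 to 0.12 (SE 0.40). Pgam1, phosphoglycerate mutase, measured 5.88, 5.30 and 5.78 in Irf4+/- mock cells, 5.81, 5.08 and 5.63 after 4 h, and 6.21, 5.52 and 5.88 after 18 h. For Pgam1 the Irf4-/- arrays gave 6.09, 5.50 and 5.82 in mock, 6.06, 5.57 and 5.63 after 4 h, and 6.26, 5.80 and 6.11 after 18 h. With the block alone it was called between 4 h and 18 h in Irf4+/- cells (0.36 ± 0.26, adjusted p = 0.84 and 0.0365 without and with it), beside 0.30 ± 0.26 in Irf4-/- cells (0.0899 with the block), and with normexp over all spots the Irf4+/- value was -0.02.

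Enolase makes phosphoenolpyruvate, and of its genes only Eno2, the neuronal type, was called. Eno2 measured -0.68, -0.36 and 0.13 in Irf4+/- mock cells, -1.78, -0.68 and -0.55 after 4 h, and -0.97, 0.25 and 0.27 after 18 h. Eno2 in Irf4-/- cells gave -1.36, -0.95 and -0.15 in mock, -2.43, -1.28 and -1.41 after 4 h, and -1.64, -0.45 and -0.24 after 18 h. The 4 h array was the lowest of the 3 conditions in all 6 series, with the 18 h array back near mock. At 4 h the difference was -0.70 ± 0.49 in Irf4+/- cells (adjusted p = 0.663, 0.0179 with the block) and -0.89 ± 0.49 in Irf4-/- cells (0.49, 0.00495 with the block). From 4 h to 18 h Eno2 rose with the block by 0.85 (adjusted p = 0.707, 0.0105 with the block) and 0.93 (0.729, 0.00921 with the block), which left 0.15 ± 0.49 and 0.04 ± 0.49 against mock. Its other probe gave -0.70 and -0.90 at 4 h and 0.18 and 0.07 at 18 h. Eno1 and Eno3 differed by at most 0.16 ± 0.21.

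Pyruvate kinase and lactate dehydrogenase A, the enzymes most often cited for macrophage glycolysis, showed no called change. Pkm2 measured 5.17, 4.17 and 5.03 in Irf4+/- mock cells, 4.88, 4.11 and 4.92 after 4 h, and 5.07, 4.11 and 4.88 after 18 h. Its Irf4-/- values were 5.10, 4.55 and 5.00, then 5.02, 4.45 and 4.77, then 4.86, 4.33 and 4.82, and B was the lowest in every group. The probe is named for the gene and is not read here as a measure of one splice form. Ldha measured 6.84, 6.10 and 6.80 in Irf4+/- mock cells, 7.02, 6.45 and 6.71 after 4 h, and 6.89, 6.39 and 6.62 after 18 h. Ldha in Irf4-/- cells gave 6.63, 6.62 and 6.67 in mock, 6.87, 6.70 and 6.97 after 4 h, and 6.80, 6.86 and 7.04 after 18 h. The Irf4-/- mock arrays of Ldha lay below all IL-4 arrays of that genotype, with differences of 0.21 ± 0.21 (adjusted p = 0.786, 0.369 with the block) and 0.26 ± 0.21 (0.707, 0.249 with the block). Ldhb differed by -0.12 to -0.01 (SE 0.34).

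Lactate leaves macrophages through the monocarboxylate transporters MCT4, encoded by Slc16a3, and MCT1, encoded by Slc16a1. Slc16a3 measured 4.84, 4.50 and 5.15 in Irf4+/- mock cells, 4.38, 4.38 and 4.70 after 4 h, and 4.22, 4.09 and 4.01 after 18 h. The Irf4-/- arrays gave 5.00, 5.07 and 5.12 for Slc16a3 in mock, 4.47, 4.63 and 4.92 after 4 h, and 4.12, 4.29 and 4.48 after 18 h. The 18 h arrays lay below all mock arrays in each genotype, with the 4 h arrays in between on average. Slc16a3 fell at 18 h by 0.72 ± 0.19 in Irf4+/- cells (adjusted p = 0.0393, 0.00305 with the block) and by 0.76 ± 0.19 in Irf4-/- cells (0.0324, 0.00244 with the block). Leaving out 1 array ended the call in 5 of 6 cases in Irf4+/- cells (all but the mock array of B) and in 6 of 6 in Irf4-/- cells, with the highest adjusted p at 0.195 and 0.127. Median scaling also ended it in each genotype (0.265 and 0.187).

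Slc16a1 measured 1.12, -0.41 and 0.55 in Irf4+/- mock cells, 1.90, -0.14 and 0.69 after 4 h, and 1.88, 0.18 and 1.07 after 18 h. Its Irf4-/- levels were 2.04, 0.54 and 0.84 in mock, 2.63, 0.78 and 1.06 after 4 h, and 2.37, 0.84 and 1.08 after 18 h. The experiments lay far apart, A highest and B lowest in every group, and each IL-4 array was above its own mock array. The 18 h difference was 0.62 ± 0.66 in Irf4+/- cells (adjusted p = 0.962, 0.029 with the block) and 0.29 ± 0.66 in Irf4-/- cells (0.904, 0.269 with the block). The difference between those responses was -0.33 ± 0.94 (adjusted p = 1 in both fits).

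**Figure D2:**
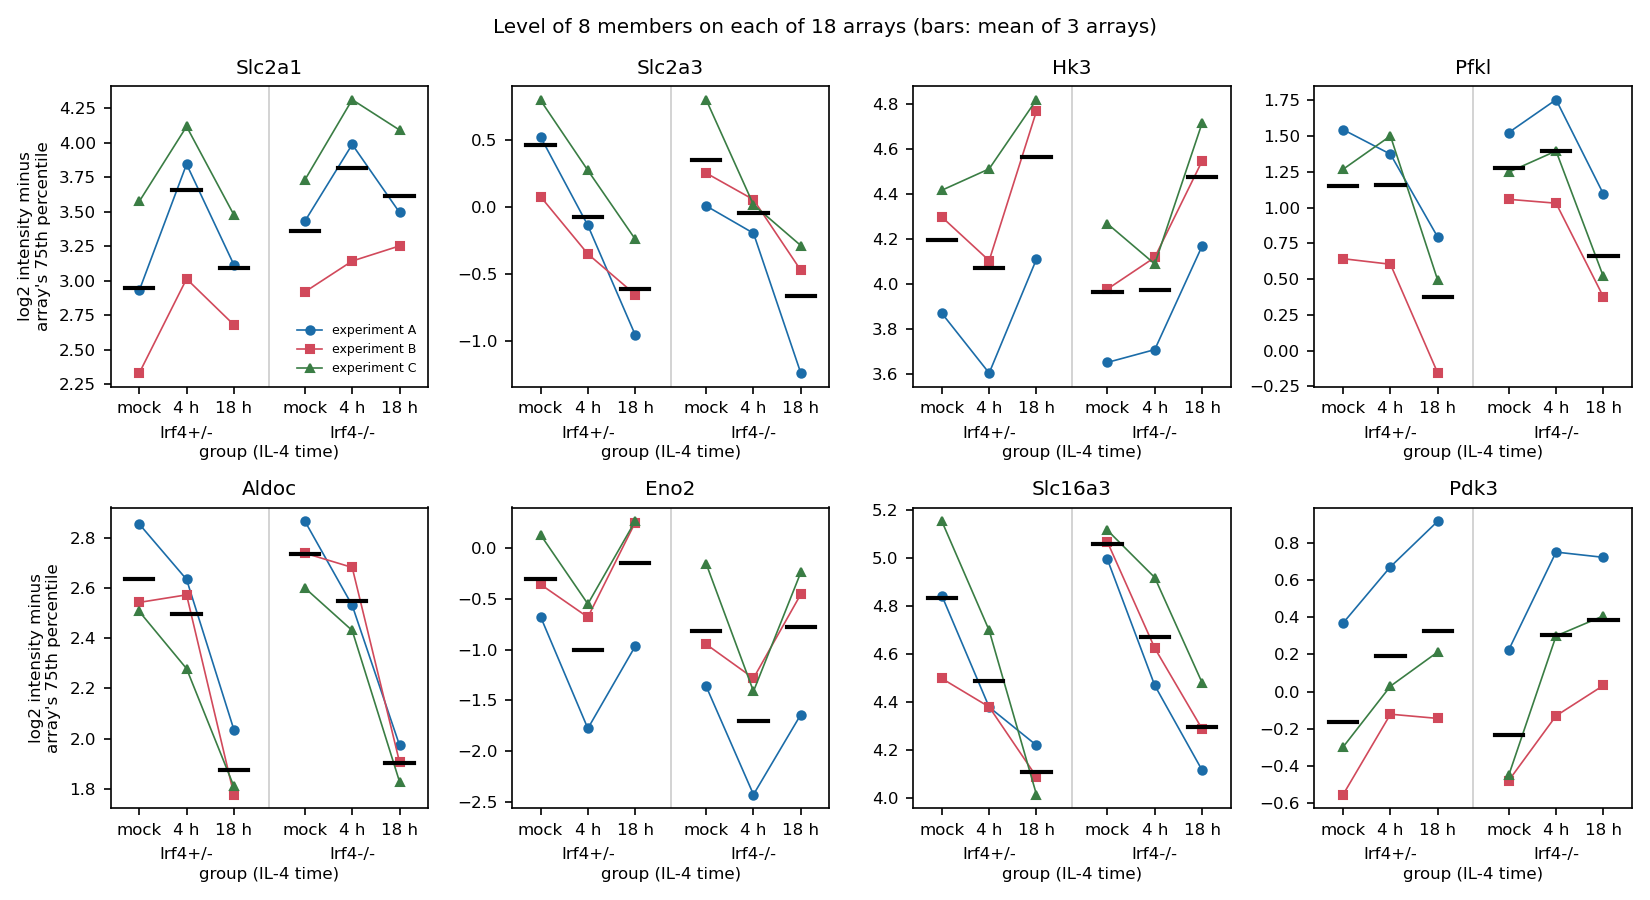
Level of 8 members on every array (log2 intensity, less the 75th percentile of the array) in the 6 groups, 1 colour and marker per experiment with lines joining the arrays of 1 experiment and genotype, and bars at the mean of 3 arrays. Aldoc, Slc16a3 and Slc2a3 end lowest at 18 h in both genotypes, Slc2a1 peaks and Eno2 dips at 4 h in all 6 series except that Slc2a1 is highest at 18 h in B of Irf4-/-.

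At the gate to the mitochondrion, pyruvate dehydrogenase is switched off by its kinases. Pdk3, one of those kinases, measured 0.37, -0.55 and -0.30 in Irf4+/- mock cells, 0.67, -0.12 and 0.03 after 4 h, and 0.92, -0.14 and 0.21 after 18 h. Its Irf4-/- levels were 0.22, -0.48 and -0.45 in mock, 0.75, -0.13 and 0.30 after 4 h, and 0.72, 0.03 and 0.41 after 18 h. Every IL-4 array was above its mock array, by 0.30 to 0.86, although the groups overlapped. In Irf4+/- cells the difference was 0.35 ± 0.35 at 4 h (adjusted p = 0.848, 0.0366 with the block) and 0.49 ± 0.35 at 18 h (0.785, 0.00703 with the block). In Irf4-/- cells Pdk3 differed by 0.54 ± 0.35 at 4 h (0.583, 0.00362 with the block) and 0.62 ± 0.35 at 18 h (0.501, 0.00164 with the block). The second Pdk3 probe gave 0.50, 0.64, 0.74 and 0.90 for these differences.

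Pdha1, the catalytic subunit that these kinases phosphorylate, measured 1.96, 1.34 and 1.44 in Irf4+/- mock cells, 2.19, 1.64 and 1.53 after 4 h, and 2.42, 1.47 and 1.70 after 18 h. For Pdha1 the Irf4-/- arrays gave 1.91, 1.51 and 1.69, then 2.21, 1.81 and 1.89, then 2.58, 1.88 and 2.01. Each IL-4 array was above its mock array, and the 18 h difference was 0.29 ± 0.28 (adjusted p = 0.937, 0.133 with the block) and 0.46 ± 0.28 (0.56, 0.0177 with the block). Pdk2, another of the kinases, had non-overlapping groups at 4 h and 18 h in Irf4-/- cells (0.33 ± 0.25 and 0.42 ± 0.25) but was called in no fit.

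None of the pentose phosphate members with a probe was called in any comparison, with or without the block. G6pdx, glucose 6-phosphate dehydrogenase and the entry step, measured 4.74, 4.49 and 4.42 in Irf4+/- mock cells, 4.79, 4.69 and 4.24 after 4 h, and 4.80, 4.61 and 4.22 after 18 h. The Irf4-/- values of G6pdx were 4.92, 4.40 and 4.45, then 4.82, 4.43 and 4.21, then 5.01, 4.56 and 4.27. Its IL-4 differences lay between -0.10 and 0.03 (SE 0.25), with A high and C low in most groups. Pgls, the lactonase, differed by 0.13 to 0.37 (SE 0.40), and Pgd, the second NADPH-yielding step, by -0.20 to -0.07 (SE 0.21). Taldo1 and Tkt, which shuttle carbon back to glycolysis, differed by -0.20 to 0.09 (SE 0.21) and by 0.09 to 0.21 (SE 0.22).

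Hif1a, which encodes the oxygen-regulated subunit of HIF-1, measured 0.81, 1.52 and 0.96 in Irf4+/- mock cells, 1.06, 1.35 and 1.16 after 4 h, and 0.72, 1.39 and 0.97 after 18 h. In Irf4-/- cells Hif1a gave 1.73, 1.62 and 1.25 in mock, 1.47, 1.48 and 1.07 after 4 h, and 1.31, 1.39 and 0.92 after 18 h. IL-4 arrays were below mock in all 3 experiments in Irf4-/- cells (-0.19 ± 0.23 and -0.32 ± 0.23), with mixed signs in Irf4+/- cells (0.09 ± 0.23 and -0.07 ± 0.23). It was called in no fit, and the arrays measure its RNA and not the protein that oxygen controls.

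Between 4 h and 18 h of IL-4, 0 of 33 members were called in Irf4+/- cells (1.12% of all genes) and 0 of 33 in Irf4-/- cells (0.568% of all genes). Without adjustment, limma gave p under 0.05 for 2 and 3 members, beside 9.49% and 8.01% of all genes. With the block, 6 members were called in Irf4+/- cells (11.4% of all genes): Hk3, Pgam1 and Eno2 rose and Slc2a1, Pfkl and Aldoc fell. In Irf4-/- cells 4 were called (8.35% of all genes), Hk3 and Eno2 upward and Pfkl and Aldoc downward. The 4 h and 18 h arrays did not overlap for 3 of 33 members in Irf4+/- cells (11.8% of all genes), which were Pfkm, Aldoc and Slc16a3. The same held for 4 members in Irf4-/- cells (13.2%), which were Slc2a3, Hk3, Aldoc and Taldo1.

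Much of the spread of the members within a group lay between experiments. For 24 of 33 members more of the within-group variation lay between the experiments A, B and C than within them, with a median share of 75.5% and a range from 14.3% for Eno1 to 95.1% for Pdk3. Experiment B was the lowest for 16 members, A for 10 and C for 7. B lay below the group mean for Slc16a1 (-0.76), Pgk1 (-0.56), Slc2a1 (-0.52), Pkm2 (-0.45), Pgam1 (-0.31) and Tpi1 (-0.26), and A lay below it for Eno2 (-0.68). The median standard error of a member's difference was 0.25 without the block. In A and B each genotype was hybridised on 1 slide, so the IL-4 differences inside those experiments are also differences within a slide, while C was spread over 3 slides. The part of the slide in the offsets between experiments was not tested.

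**Figure D3:**
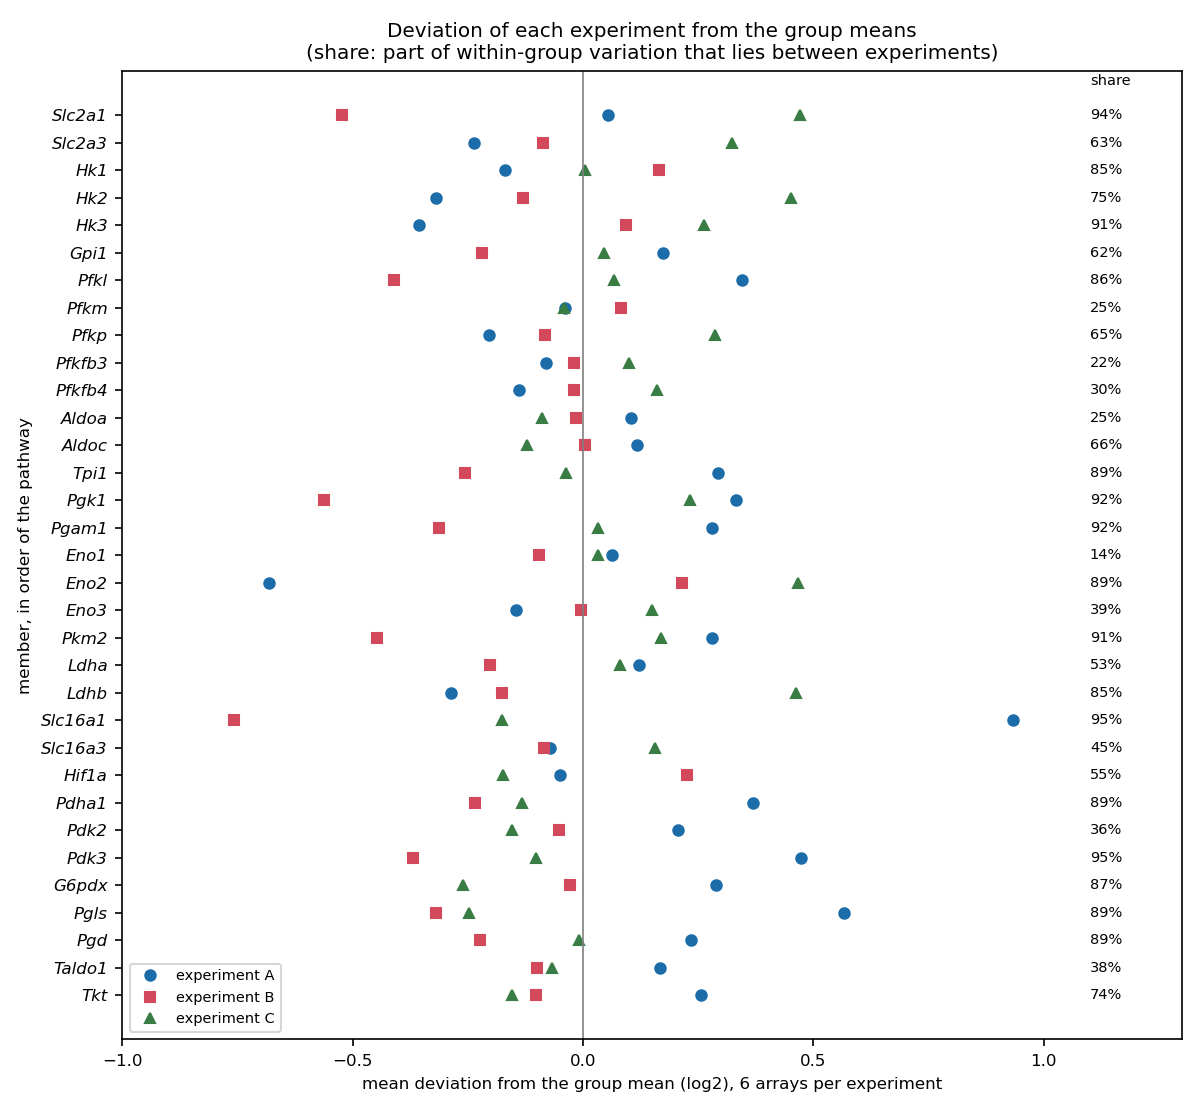
Mean deviation of each experiment from the group means (log2, 6 arrays per experiment) for the 33 members, with the share of the within-group variation that lies between experiments at the right. Slc16a1, Slc2a1, Pgk1 and Pkm2 are lowest in B, Eno2 is lowest in A, and shares run from 14.3% for Eno1 to 95.1% for Pdk3.

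The question of the series is what IRF4 contributes, and no member was called between Irf4-/- and Irf4+/- cells. In limma 0 of 33 members were called in mock cells (0% of all genes), after 4 h (0% of all genes) and after 18 h of IL-4 (0.0258% of all genes). With the block it was again 0 of 33 in each condition (0.0323%, 0.0258% and 0.433% of all genes). Unadjusted p under 0.05 was reached by 1, 0 and 0 members without the block, beside 2.32%, 0.775% and 2.99% of all genes, and by 6, 3 and 6 with it, beside 13.9%, 7.06% and 14%. The median difference of the members was 0.04 in mock, 0.03 at 4 h and 0.06 at 18 h, beside -0.06, -0.01 and 0.02 over all genes. Between the genotypes' IL-4 responses no member was called (0 of 33 at 4 h and 0 of 33 at 18 h, 0% of all genes in each, with and without the block). Here 0 members reached an unadjusted p under 0.05 at either time in either fit, beside 0.368% and 0.536% of all genes without the block and 2.73% and 4.22% with it. The differences of the responses ran from -0.28 to 0.38 at 4 h and from -0.41 to 0.30 at 18 h with a median standard error of 0.35.

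Some members kept 1 side throughout. Slc2a1, Hk2, Pgam1 and Slc16a1 were higher and Eno2 was lower in Irf4-/- cells in 9 of 9 pairs of arrays of the same experiment and condition. That is 15.2% of the members, beside 6.25% of all genes with a value on every array. The 9 pairs come from 3 experiments under 3 conditions, and pairs of the same experiment are not independent. Slc2a1 differed by 0.42 in mock, 0.16 at 4 h and 0.52 at 18 h (SE 0.40, adjusted p = 0.0938 at 18 h with the block), which was the lowest adjusted p of any member between genotypes. Eno2 differed by -0.52, -0.71 and -0.63 (SE 0.49, adjusted p from 0.156 to 0.575 with the block) and Slc16a1 by 0.72, 0.67 and 0.39 (SE 0.66). Hk2 was higher by 0.27, 0.35 and 0.25 (SE 0.36) and Pgam1 by 0.15, 0.25 and 0.19 (SE 0.26). Pfkm and Pdk2 in mock, Pfkm at 4 h and Pfkfb3 at 18 h had non-overlapping genotypes, 2, 1 and 1 of 33 members, beside 6.76%, 2.53% and 5.95% of all genes. In A and B each genotype was on a slide of its own, and 1 slide, in C, held both genotypes, under different conditions. With slide as a random block, or as a fixed block that joins the genotypes through that 1 slide, 0 of 33 members were called in each condition. In A the genotypes were also scanned on different days, and without experiment A no member was called either. In the fit without slide or block, 0%, 0% and 0.0258% of all genes were called in mock, at 4 h and at 18 h. A count of 0 in that fit was therefore not particular to the members. Shares over all genes under the alternatives are not given here.

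**Figure D4:**
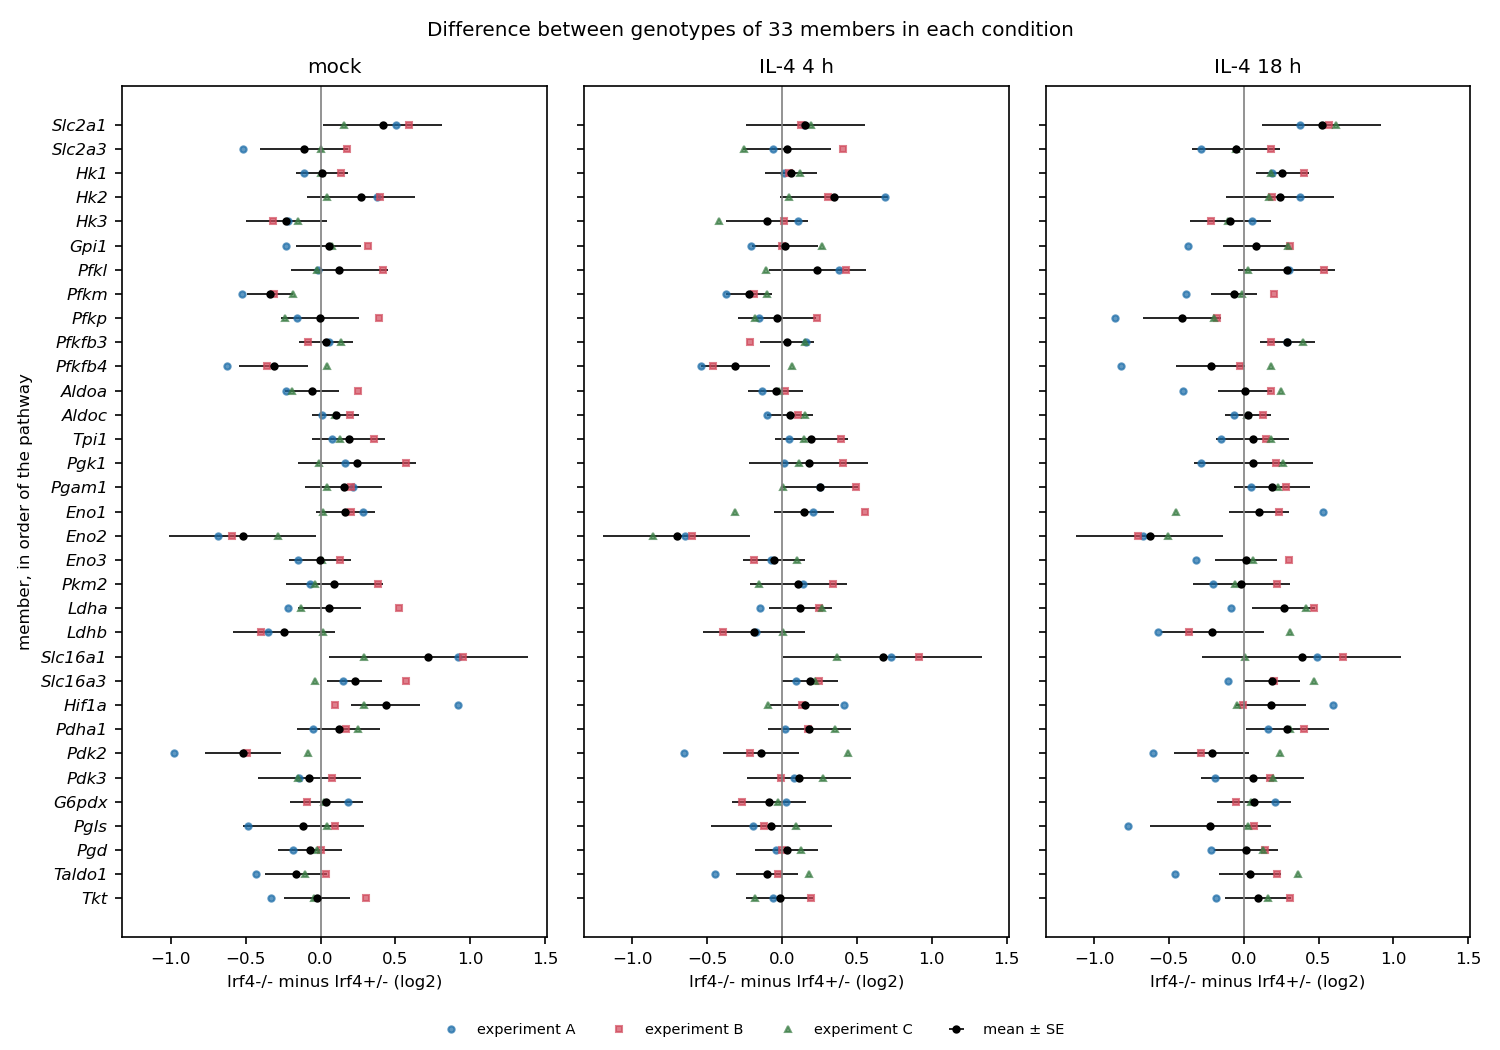
Difference between Irf4-/- and Irf4+/- macrophages (log2) for the 33 members in mock, 4 h and 18 h of IL-4, as the mean ± SE of the fit (black, 3 arrays per group) with the difference inside each experiment (colours). No member was called in any condition, and Eno2 lies below 0 and Slc2a1 above 0 in every experiment and condition.

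The IL-4 responses of the members in the 2 genotypes rest on different arrays. Of 33 members, 29 had the same sign in both at 4 h and 27 at 18 h, beside 77.4% and 78.7% of all genes. Over the 33 members, which share arrays and are not independent, Pearson's r between the responses was 0.90 at 4 h and 0.91 at 18 h, beside 0.87 and 0.88 over all genes.

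Other genes of sugar metabolism were taken from 10 lists of enzymes, transporters and regulators outside the members. Most were not called without the block, and the same was true of all genes. Of all genes, 7.29% were called without the block in 1 or more of the 4 comparisons with mock. In the lists with a call the share was 9.09%, 6.67%, 5.56% and 6.67%, in the order given below. At 4 h, Prps1, which makes phosphoribosyl pyrophosphate from ribose 5-phosphate, rose by 2.97 ± 0.59 in Irf4+/- cells (adjusted p = 0.00873, 4.84e-06 with the block) and by 2.40 ± 0.59 in Irf4-/- cells (0.0336, 2.85e-05 with the block), 1 of 11 tested pentose phosphate and NADPH genes. Gpd1, the glycerol 3-phosphate dehydrogenase that draws on triose phosphate, rose in Irf4+/- cells at 4 h (1.48 ± 0.37, adjusted p = 0.0356, 0.00212 with the block) and again at 18 h (1.52 ± 0.37, 0.0322, 0.00196 with the block), 1 of 15 genes of branches off glycolysis. In Irf4-/- cells it rose with the block alone, by 1.36 ± 0.37 (0.0602, 0.00395 with the block) and 1.34 ± 0.37 (0.0676, 0.00478 with the block). Pgm2l1, of the phosphoglucomutase family, rose at 4 h in Irf4-/- cells by 1.43 ± 0.34 (adjusted p = 0.0277, 0.00225 with the block), 1 of 18 glycogen and galactose genes, and with the block alone by 0.90 ± 0.34 in Irf4+/- cells (0.206, 0.0311 with the block). Ndrg1, a target of HIF-1, fell at 18 h in Irf4+/- cells by 0.92 ± 0.23 (adjusted p = 0.0363, 0.00183 with the block), 1 of 15 HIF targets outside glycolysis, and with the block alone by 0.66 ± 0.23 in Irf4-/- cells (0.177, 0.0146 with the block). In the other 6 lists limma called 0 genes after IL-4 without the block. Of these, 2 of 6 tested genes of glucose transport and hexose entry had an unadjusted p under 0.05 at some time and genotype, 2 of 10 other glycolytic isozymes, 1 of 7 of lactate and pyruvate transport, 2 of 7 of the pyruvate dehydrogenase complex, 1 of 6 of gluconeogenesis and 2 of 8 HIF regulators. With the block 3, 4, 1, 3, 4 and 2 of them were called. Over all genes, 25% had such an unadjusted p in 1 or more of the 4 comparisons with mock and 33.7% were called with the block in 1 or more. Slc2a4, the insulin-responsive transporter GLUT4, was among those called with the block. Its mean level was -5.75 in mock and -3.81 at 18 h in Irf4+/- cells, and -5.98 and -4.08 in Irf4-/- cells. It was well above background on 1 and 2 of 3 mock arrays and on 3 of 3 arrays of each IL-4 group. Slc2a4 passed the probe filter only through the IL-4 groups, where it was higher, so no test of its rise is given. Pdp1, a phosphatase that switches pyruvate dehydrogenase on, rose with the block at 18 h by 1.03 ± 0.32 (adjusted p = 0.102, 0.00159 with the block) and 0.74 ± 0.32 (0.322, 0.0133 with the block). Pdk1, a kinase of the same complex, was the only gene of the 10 lists called between genotypes, with the block at 18 h (0.78 ± 0.24 higher in Irf4-/- cells, adjusted p = 1 without and 0.00700 with the block). With the block, 5 of 15 HIF targets outside glycolysis fell at 18 h in each genotype and 0 rose, beside 7.78% and 6.72% of all genes that fell. Ndrg1 was 1 of them. Egln3 differed by -1.73 ± 0.59 and -1.40 ± 0.59 (adjusted p = 0.152 and 0.304, 0.00399 and 0.0148 with the block). P4ha2 differed by -1.52 ± 1.29 and -1.46 ± 1.29 (0.892 and 0.738, 1.90e-05 and 3.27e-05 with the block). Vegfa differed by -1.36 ± 0.78 and -0.76 ± 0.78 (0.600 and 0.778, 0.00124 and 0.0367 with the block). P4ha1 differed by -0.54 ± 0.23 and -0.41 ± 0.23 (0.336 and 0.516, 0.00428 and 0.0211 with the block). Of the 15, 8 were higher than mock in each genotype, with a median difference of 0.06 and 0.08.

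The labels were checked against marker genes. Of the 10 macrophage markers with a probe, 10 were well above background on all arrays, with summed levels from 9.64 to 10.80. With and without the block 1 of them, Cd14, fell at 18 h, by 2.48 ± 0.23 in Irf4+/- cells (adjusted p = 1.87e-05, 8.41e-06 with the block) and by 2.35 ± 0.23 in Irf4-/- cells (3.37e-05, 1.41e-05 with the block). It fell at 4 h too, by 1.64 and 1.84. Fcgr1 and Mertk fell at 18 h with the block alone, Fcgr1 by 2.19 ± 0.74 (adjusted p = 0.15, 0.00349 with the block) and 1.65 ± 0.74 (0.352, 0.0187 with the block), Mertk by 1.16 ± 0.88 (0.829, 2.43e-04 with the block) and 0.90 ± 0.88 (0.765, 0.00173 with the block). Retnla and Arg1 are known targets of IL-4 in macrophages. Retnla was not well above background on any mock array. At 18 h it was at least 15619-fold higher in Irf4+/- and at least 9535-fold higher in Irf4-/- cells. This bound takes for mock the lowest signal well above background on each array. Arg1 was at least 1986-fold higher in Irf4-/- cells by the same bound. In Irf4+/- cells, where 1 of 3 mock arrays was well above background, Arg1 was higher by 10.99 ± 0.74 on the log2 scale. Retnla and Arg1 passed the probe filter only through the IL-4 groups, where they were high, so no test of their rise is given. The Irf4 probe was not lower in Irf4-/- arrays (0.34 ± 0.39 in mock) and rose with IL-4 in both genotypes, and its place relative to the deletion is not stated in these sources, so it checks no genotype label. Markers of other cells moved with IL-4 in places. The summed level of 7 osteoclast markers with a probe was 1.23 to 2.65 in Irf4+/- mock and 3.31 to 4.45 at 18 h, and 1.14 to 2.79 and 2.87 to 3.79 in Irf4-/- cells. Of these, 6 were above background on all arrays, and Atp6v0d2 rose at 18 h by 3.12 ± 0.29 and 3.16 ± 0.29 (adjusted p = 1.64e-05 and 1.32e-05). At that time 2 of the 7 rose in Irf4+/- and 1 in Irf4-/- cells, 4 and 3 with the block. The sum of 7 conventional dendritic cell markers was 0.53 to 0.92 in Irf4+/- mock and 3.09 to 5.22 at 18 h, and -0.02 to 0.33 and 1.93 to 3.88 in Irf4-/- cells. Of these, 4 were above background on all arrays, and 6 were tested. Batf3 rose at 18 h by 3.60 ± 0.59 and 3.21 ± 0.59 (adjusted p = 0.00186 and 0.00549). Clec9a was well above background on 1 of 3 Irf4+/- mock arrays, 3 of 3 Irf4-/- mock arrays and no 18 h array. It passed the probe filter only through Irf4-/- mock, where it was highest, so no test of its fall is given. Of the 6 tested, 3 were higher at 18 h in Irf4+/- cells (median difference 0.13) and 4 in Irf4-/- cells (0.49). The sum of 7 B cell markers, of which Ebf1 was never above background, was 1.11 to 1.59 in Irf4+/- mock and 0.46 to 1.05 at 18 h, and 0.58 to 1.02 and 0.29 to 0.59 in Irf4-/- cells. Of 9 neutrophil markers tested, 7, 8 and 8 were higher in Irf4-/- cells in mock, at 4 h and at 18 h. The median differences were 0.39, 0.29 and 0.51. Their summed level was 4.11 to 5.78 in Irf4-/- mock and 4.23 to 4.44 in Irf4+/- mock. Of 10 macrophage markers, 1, 2 and 7 were higher in Irf4-/- cells (medians -0.35, -0.13 and 0.05). No marker of these 2 lists was called between genotypes in either fit. The part of all these markers in the results on the members was not tested. Fewer cells of a type and less RNA per cell cannot be told apart in these bulk samples.

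Across the arrays 63.4% to 74.4% of 43379 spots were well above background, and the 75th percentile of the intensity ran from 719 to 1961. The 3 arrays per group limit the precision of each comparison. The series describes separate experiments, so the p-values without the block measure the spread between experiments with pooled animals. With the block, the offset that the arrays of an experiment share is taken out. Its p-values then rest on how much the differences between groups vary from experiment to experiment. No experiment holds replicate arrays of a group, so they do not measure precision within an experiment.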

How the data were processed

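RNA from 18 macrophage samples was measured on single-colour Agilent arrays. Groups and experiment letters follow the sample titles. Per the submitters' processing notes, spots were extracted with Agilent Feature Extraction 9.5.1. Per the file headers, the deposited intensity is background-subtracted and not scaled between arrays. A deposited log2 table of the whole series, in which values stand relative to Irf4+/- mock, served as an alternative, and the steps behind it are not stated in these sources. The deposited flags for control spots, outliers and signal above background were read per the file headers.

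Each intensity was turned to log2 and scaled by subtracting the 75th percentile. Control and outlier spots were removed and replicate spots averaged. Probes had to be well above background in every array of 1 or more groups (27489 of 41174 probes), and the probe with the highest mean stood for each of 15486 genes. Genes outside the members were named through RefSeq tables (GRCm38.p6). Some glycolytic genes have near-identical copies, and cross-hybridisation was not tested.

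Tests used limma 3.58.1 in R 4.3.3 (lmFit, eBayes, two-sided, Benjamini-Hochberg over all genes) with 1 mean per group, and were tested on simulated data. The series text says that experiments used littermates. Deviations from the group means correlated between arrays of the same letter in every pair (lowest 0.55 in A, 0.51 in B and 0.43 in C). The median between letters was -0.42, which centring on means of 3 arrays pushes below 0, so it adds no evidence. By the correlations inside letters, the letters pair the samples, and the fit with the letter as a block stands beside the main one. Alternatives were other scalings, normexp background correction (offset 50), probe filters, slide as a block, only the compared groups in the fit, the mean of a gene's probes, the deposited table and leaving out each array. Promoter windows came from RefSeq sequence, and plots were drawn with matplotlib 3.10.9 in Python 3.11.15.

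Every array is given for members called in at least 1 comparison in either fit and for Slc2a1, Hk1, Hk2, Hk3, Pfkl, Pfkfb3, Pkm2, Ldha, G6pdx and Hif1a. Of the other lists of sugar metabolism, every gene called without the block is named, and only some of those called with the block alone. The members and lists were chosen with earlier results of these data known.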

Additional observations from a re-analysis of the deposited data

How the results depend on the processing

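With the experiment as a block, 3 members were called at 4 h and 8 at 18 h in Irf4+/- cells. In Irf4-/- cells it was 3 and 9, and between the times 6 and 4. The authors' deposited table holds log2 ratios to the Irf4+/- mock array of the same letter, which that block absorbs. Its counts with the block, 3, 8, 3, 9, 6 and 4, are therefore no separate check. The slide as a random block gave 8, 9, 3, 11, 9 and 7 in that order (32.8%, 22.4%, 26.8%, 27.5%, 18.9% and 22.4% of all genes), and as a fixed block, an alternative chosen after seeing the data, 6, 8, 2, 11, 6 and 8 (29.3%, 17.7%, 20.6%, 23.6%, 12.7% and 18%). At 18 h, 2 members were called in each genotype (4.15% of all genes in Irf4+/- and 3.55% in Irf4-/- cells). Median scaling and no filter on probes left 1 in each, and fitting only the compared groups left 0 in each. Normexp over all spots left 0 in Irf4-/- cells, and quantile normalization called 1 between the times in Irf4-/- cells. Leaving out each array gave 0 to 3 at 18 h in Irf4+/- cells (0 without the mock array of A) and 1 in every case in Irf4-/- cells. The cause of these shifts was not tested. Apart from the slide blocks, the shares over all genes under these alternatives are not given, so the shifts are not read as particular to the members. Genotype and the difference of responses gave 0 members under every alternative run. Without an alternative, 0% to 0.0258% of all genes were called in these comparisons, so a count of 0 is not particular to the members. Normexp over all spots moved the median of all genes at 18 h in Irf4+/- cells from 0.02 to 0.15 and that of the members from -0.01 to -0.32. Over the single results named, 452 alternatives kept direction and side of the threshold, 116 came to pass it, 22 no longer passed it and 4 changed sign, all for members not called by limma without the block. The mean of a gene's kept probes turned Slc2a3 at 18 h to 0.12 in Irf4+/- and 0.35 in Irf4-/- cells. Normexp over all spots turned Hk3 at 18 h in Irf4+/- cells to -0.080 and Pgam1 between the times in Irf4+/- cells to -0.017. The 3 arrays per group and signal over background limit all of these values.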
